A study of Mus musculus with 10 samples.

Results

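The neural crest glia and Schwann cell precursor genes described here are *Sox10*, *Foxd3*, *Erbb3* and *Cdh19*. They were chosen by name, as the rows of the deposited count table whose Ensembl identifier belongs to 1 of these symbols, and they were 4 of the 54146 genes in the table. All 4 passed the filter on low counts, which kept 19773 genes. RNA was sequenced from the lumbar spinal cord of 10 mouse embryos at E12.5, each embryo 1 library, with the dorsal root ganglia still attached by the sample labels. The 5 *Dot1l*-cKO embryos were Wnt1cre2/+; Dot1l fl/fl, and no control carried the transgene, which the strain name places at *E2f1*. Litter 1 held *Dot1l*-cKO embryos 2, 3 and 7 and control embryos 4, 5 and 9, which were +/+; Dot1l fl/fl. Litter 2 held *Dot1l*-cKO embryos 4 and 6 and control embryos 5 and 7, which were +/+; Dot1l fl/+. Every embryo thus carried at least 1 floxed allele, the controls of the litters differed in its number, and no embryo had the transgene without 2 floxed alleles. Wnt1-Cre acts in the dorsal neural tube and in the neural crest that leaves it, so the glia of the ganglia belong to the lineage in which *Dot1l* is deleted.

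Schwann cell precursors and satellite glia arise from neural crest cells that settle along the nerves, in the roots and in the ganglia. SOX10 is the transcription factor that keeps crest cells on the glial path and drives *Erbb3* among other glial genes. ERBB3 is the receptor through which neuregulins made by axons keep these precursors alive, and it signals with the kinase ERBB2. FOXD3 is a forkhead factor of the early crest and its glial progeny, and it is also made by dI2 and V1 interneurons inside the cord. CDH19 is a cadherin of migrating crest cells and Schwann cell precursors.

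In the GRCm38 (mm10) annotation, *Sox10* (ENSMUSG00000033006.10) lies on the minus strand at chr15:79154908-79165240, *Erbb3* (ENSMUSG00000018166.8) on the minus strand at chr10:128567523-128589652 and *Cdh19* (ENSMUSG00000047216.8) on the minus strand at chr1:110888326-110977584. *Foxd3* (ENSMUSG00000067261.4) has a single exon on the plus strand at chr4:99656299-99658622. Base composition sets these genes apart, and it bears on the comparisons below. The exons of *Foxd3* held 65.1% G and C and those of *Sox10* 61.8%, against 51.2% in *Erbb3* and 37.4% in *Cdh19* and a median of 49.4% over the tested genes. At least as high a content was found in 0.481% of tested genes for *Foxd3* and in 1.96% for *Sox10*, and 2.15% were as low as *Cdh19*. To show this, a window of 60 coding bases inside 1 exon is printed for each gene, taken where its G and C content lay nearest to that of the whole coding sequence, 5′ to 3′ on the coding strand with every G and C in capitals.
Foxd3, chr4:99656626-99656685, 43 of 60 bases: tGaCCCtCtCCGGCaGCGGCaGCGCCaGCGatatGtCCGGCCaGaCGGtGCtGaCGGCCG
Sox10, chr15:79163656-79163715, 38 of 60 bases: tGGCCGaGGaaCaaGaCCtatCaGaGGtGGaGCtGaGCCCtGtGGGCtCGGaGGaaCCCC
Erbb3, chr10:128586232-128586291, 33 of 60 bases: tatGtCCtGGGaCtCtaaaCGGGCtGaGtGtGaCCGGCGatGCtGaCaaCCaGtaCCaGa
Cdh19, chr1:110954678-110954737, 25 of 60 bases: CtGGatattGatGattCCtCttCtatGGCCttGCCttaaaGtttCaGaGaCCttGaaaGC

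Total counts lay between 40949585 and 68928443 per embryo. Levels are in CPM, the count divided by the TMM-scaled library size, so that they can be compared between embryos. *Xist* was at 6.00 and 6.79 CPM in the *Dot1l*-cKO embryos of litter 2 and between 499 and 890 CPM in the other 8, so within litter 2 genotype and sex cannot be told apart. *Dot1l* itself ranged from 87.6 to 107 CPM over the controls and from 97.8 to 112 CPM over the *Dot1l*-cKO embryos, and within litter 2 it was called higher in *Dot1l*-cKO embryos (log2 fold change 0.29, adjusted p = 0.0240 by edgeR). The row sums the whole gene, including what the deletion leaves, and so does not check the labels.

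All 4 genes were detected in every embryo. Per kilobase of exon, the mean level over the 10 embryos was 14.5 ± 3.81 CPM (SD) for *Sox10*, 8.92 ± 2.02 for *Erbb3*, 4.39 ± 1.12 for *Foxd3* and 1.28 ± 0.266 for *Cdh19*. This order was the same within each of the 10 embryos. Across embryos the ranges of neighbours in the order overlapped between *Sox10* (8.60 to 20.04 CPM per kilobase) and *Erbb3* (5.96 to 13.0), and between *Erbb3* and *Foxd3* (3.19 to 6.47). *Cdh19* (0.851 to 1.53) lay below all values of *Foxd3*.

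*Sox10* was at 40.1, 49.1 and 59.5 CPM in control embryos 4, 5 and 9 of litter 1 and at 44.9, 61.1 and 35.7 CPM in *Dot1l*-cKO embryos 2, 3 and 7. In litter 2 it was at 29.6 and 26.2 CPM in control embryos 5 and 7 and at 50.8 and 45.4 CPM in *Dot1l*-cKO embryos 4 and 6. The 2 controls of litter 2 were the lowest of all 10 embryos, and the genotypes overlapped in litter 1 but not in litter 2. *Erbb3*, the neuregulin receptor, was at 59.5, 60.9 and 78.0 CPM in the controls of litter 1 (embryos 4, 5 and 9) and at 47.2, 62.9 and 47.7 CPM in its *Dot1l*-cKO embryos 2, 3 and 7. In litter 2 it was at 41.5 and 35.9 CPM in control embryos 5 and 7, again the lowest of the 10, and at 54.4 and 49.1 CPM in *Dot1l*-cKO embryos 4 and 6. Control embryo 9 of litter 1 held the highest *Erbb3* value.

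*Foxd3* was at 7.78, 10.1 and 8.79 CPM in control embryos 4, 5 and 9 of litter 1 and at 8.61, 13.6 and 7.42 CPM in *Dot1l*-cKO embryos 2, 3 and 7. In litter 2 it was at 8.14 and 10.4 CPM in control embryos 5 and 7 and at 12.2 and 15.04 CPM in *Dot1l*-cKO embryos 4 and 6. Unlike for *Sox10* and *Erbb3*, the *Foxd3* values of the controls overlapped between the litters. *Cdh19*, the cadherin, was at 6.25, 4.47 and 6.53 CPM in control embryos 4, 5 and 9 of litter 1 and at 6.26, 6.51 and 5.78 CPM in *Dot1l*-cKO embryos 2, 3 and 7. In litter 2 it was at 3.64 and 3.92 CPM in control embryos 5 and 7 and at 6.51 and 4.93 CPM in *Dot1l*-cKO embryos 4 and 6. Its litter 2 controls were the lowest of the 10 embryos, as for *Sox10* and *Erbb3*.

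**Figure D1:**
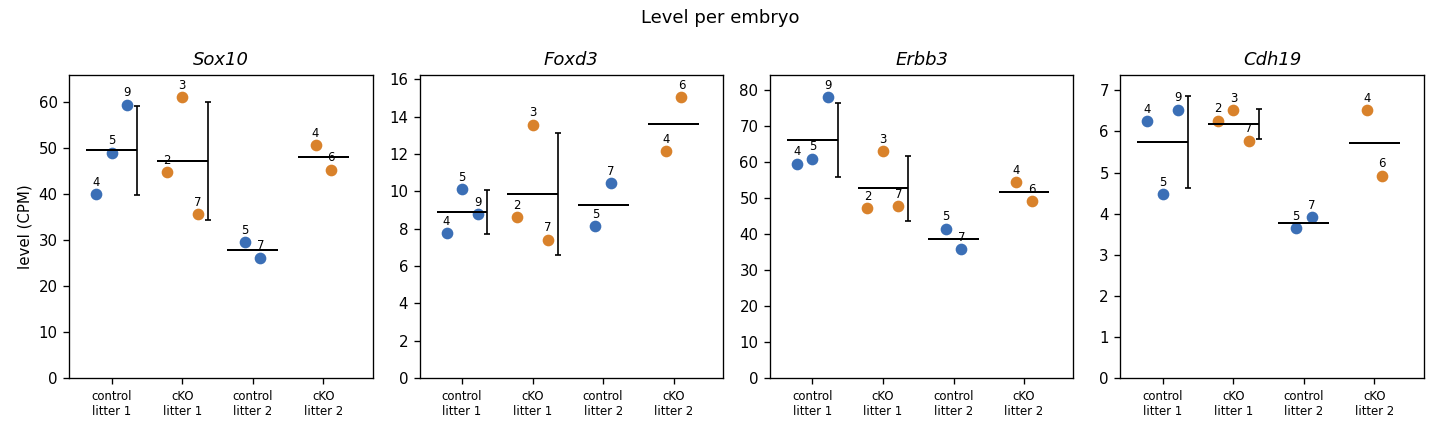
Level in CPM (y axis, from 0) of the 4 genes in each embryo, by genotype (blue, control, and orange, *Dot1l*-cKO) and litter. Points carry the embryo number, lines are group means and bars the SD of the groups of 3. *Sox10*, *Erbb3* and *Cdh19* were lowest in the 2 controls of litter 2.

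The first comparison asks whether the genes of the crest-derived glia differed between genotypes once the litter was allowed for. None of the 4 passed edgeR's quasi-likelihood test at a Benjamini-Hochberg adjusted p of 0.05, against 2.99% of all tested genes. This does not show equal levels, as the intervals below reach up to 0.65. *Sox10* had a mean of 47.6 ± 9.31 CPM (SD, n = 5) in *Dot1l*-cKO embryos and 40.9 ± 13.8 in controls, a log2 fold change of 0.26 with a 95% interval from -0.10 to 0.63 (adjusted p = 0.398). *Erbb3* stood at 52.3 ± 6.61 CPM against 55.1 ± 16.8, a log2 fold change of -0.04 with an interval from -0.33 to 0.25 (adjusted p = 0.904). The receptor showed the smallest difference of the 4. *Foxd3* had 11.4 ± 3.25 CPM against 9.06 ± 1.18, a log2 fold change of 0.31 with an interval from -0.03 to 0.65 (adjusted p = 0.270). *Cdh19* had 6.00 ± 0.670 CPM against 4.96 ± 1.34, a log2 fold change of 0.29 with an interval from 0.00 to 0.58 (adjusted p = 0.229). At an unadjusted p under 0.05 *Cdh19* alone passed, beside 21.7% of all tested genes, and DESeq2 called 0 of the 4, beside 8.98% of the genes it tested. Without the filter on low counts *Sox10* and *Foxd3* passed with nearly the same fold changes (0.27, adjusted p = 0.000667, and 0.32, adjusted p = 0.0209), beside 6.25% of the genes in that fit. With *Xist* as a covariate the difference of *Sox10* changed sign (-0.11, adjusted p = 0.860), and 0 of the 4 passed. *Erbb3* had -0.35 (adjusted p = 0.274), *Foxd3* 0.12 and *Cdh19* 0.08. *Xist* was low only in the *Dot1l*-cKO embryos of litter 2, so the covariate nearly marks these embryos and takes up their genotype contrast. The values lay close to those within litter 1 (-0.06 for *Sox10*, -0.33 for *Erbb3*, 0.15 for *Foxd3* and 0.10 for *Cdh19*). This fit therefore cannot separate sex from genotype.

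The genotype difference was then taken within each litter. In litter 1, where control and *Dot1l*-cKO embryos carried the same number of floxed alleles and *Xist* was at 499 CPM or more in every embryo (log2 fold change -0.39, adjusted p = 0.236), 0 of the 4 genes passed, beside 0.0623% of the tested genes. The log2 fold changes were -0.06 for *Sox10* (95% interval -0.48 to 0.35), 0.15 for *Foxd3* (-0.30 to 0.61), -0.33 for *Erbb3* (-0.61 to -0.04) and 0.10 for *Cdh19* (-0.23 to 0.44). *Erbb3* was the only member with an unadjusted p under 0.05 in litter 1 (adjusted p = 0.299 by edgeR), where 6.66% of all tested genes were lower and 7.43% higher at that threshold. Without the filter it passed (-0.32, adjusted p = 0.00192), as did 1.75% of the genes in that fit as lower. The lists of other cells went both ways in litter 1. All 11 markers of mesenchyme and meninges were lower in its *Dot1l*-cKO embryos (4 at an unadjusted p under 0.05, 0 after adjustment by edgeR), with sums of 1245 to 2013 CPM against 1807 to 2325 CPM in controls. Of 6 endothelial markers 5 were lower, all 5 at an unadjusted p under 0.05 and 0 after adjustment, with sums of 224 to 249 CPM against 279 to 322 CPM. Of 16 ganglion neuron markers 7 were lower and 0 higher at an unadjusted p under 0.05, and 1, *Runx3*, after adjustment. Of 6 genes listed for oligodendrocyte precursors 4 were higher (2 at an unadjusted p under 0.05), as were 5 of 6 listed for V1 and dI2 interneurons (1 at that threshold). Of the 18 Schwann cell precursor and satellite glia genes 2 were higher and 3 lower at an unadjusted p under 0.05, and 0 genes of these last 3 lists passed after adjustment. The part of these cells in the *Erbb3* value was not tested.

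In litter 2 all 4 genes were higher in both *Dot1l*-cKO embryos than in both controls, a pattern found in 24.2% of the tested genes, and 3 of the 4 passed edgeR's test as higher, beside 3.98% of the tested genes. *Sox10* rose 1.73-fold (log2 fold change 0.79, standard error 0.09, adjusted p = 0.000647), *Foxd3* 1.48-fold (0.56, standard error 0.15, adjusted p = 0.0469) and *Erbb3* 1.34-fold (0.42, standard error 0.09, adjusted p = 0.0197). *Cdh19* had a log2 fold change of 0.60 (95% interval 0.20 to 1.004, adjusted p = 0.0833). These fits estimated the spread from 2 embryos against 2. With the spread taken over all 4 groups of embryos the fold changes were close to the same and none passed (adjusted p = 0.135 for *Sox10*, 0.265 for *Foxd3* and 0.203 for *Erbb3*), beside 0.205% of the genes in that fit called higher. Of 16 tested markers of ganglion neurons, 7 passed as higher in litter 2, 0 passed as lower and 9 did not pass, and the summed level of the list was 1069 to 1183 CPM in *Dot1l*-cKO embryos and 975 to 1020 CPM in controls. No marker of that list was at 0 in any embryo. Markers of mesenchyme and meninges summed to 1564 to 1742 CPM in *Dot1l*-cKO embryos and 1294 to 1445 CPM in controls of litter 2, and erythroid markers to 1612 to 2016 CPM and 1312 to 1431 CPM. The part of these cells in the glial result was not tested, and in bulk tissue fewer cells of a type and less RNA per cell cannot be told apart. Of the other Schwann cell precursor and satellite glia genes, 5 of 18 passed as higher in litter 2 and 0 as lower, and their median was 0.22 on the log2 scale, against -0.01 over all tested genes. By sign alone 15 of the 18 were higher and 3 lower, beside 9077 higher of 18786 tested genes. The summed level of that list went the other way, at 895 to 898 CPM in *Dot1l*-cKO embryos and 907 to 947 CPM in controls of litter 2. A sum is weighted to the genes of highest level, which per kilobase were *Fabp7* and *Serpine2* in this list.

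The difference of the genotype effect between the litters was tested as an interaction. It was positive for all 4 genes, with log2 values of 0.85 for *Sox10* (95% interval 0.28 to 1.43), 0.75 for *Erbb3* (0.33 to 1.17), 0.50 for *Cdh19* (-0.04 to 1.03) and 0.41 for *Foxd3* (-0.26 to 1.07). None passed after adjustment by edgeR (adjusted p between 0.346 and 0.741), in a test that called 0.00978% of all tested genes. Unadjusted p was 0.00673 for *Sox10* and 0.00184 for *Erbb3*, and it was under 0.05 for 8.05% of the genes. With DESeq2 *Erbb3* passed (0.75, adjusted p = 0.0276), beside 0.583% of the genes it tested. Without the filter both *Sox10* and *Erbb3* did (adjusted p = 6.8e-09 and 1.6e-07 by edgeR), beside 1.24% of the genes in that fit. Their log2 values there were close to the same, so these calls rest on the spread, estimated with rows of few counts kept in. Calls made only without the filter, here and above, are given as a dependence on the processing and not as results.

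The base composition shown by the windows above varied with the libraries. Over all genes, those as rich in G and C as *Foxd3* and *Sox10* were at a lower level in the controls of litter 2 than in its *Dot1l*-cKO embryos. At the G and C content of *Foxd3*, the smoothed trend over all genes lay at -0.38 and -0.27 on the log2 scale in control embryos 5 and 7 of litter 2 and at 0.10 and 0.25 in *Dot1l*-cKO embryos 4 and 6, relative to the mean of the 10 embryos. *Dot1l*-cKO embryo 3 of litter 1, which held the highest *Foxd3* value of that litter, had a trend of 0.42. At the content of *Erbb3* the trend stayed between -0.03 and 0.02 in all embryos. With the trend removed from each embryo, the genotype difference of *Foxd3* over both litters went from 0.31 to -0.03 and that of *Sox10* from 0.26 to 0.04, while *Erbb3* stayed at -0.04 and *Cdh19* moved to 0.35, and 0 of the 4 passed. Within litter 2 the correction left *Erbb3* at 0.41 (adjusted p = 0.0224 by edgeR). It took *Sox10* from 0.79 to 0.45 (adjusted p = 0.0441) and *Foxd3* from 0.56 to 0.07 (adjusted p = 0.846), in a fit that called 1.27% of genes higher. *Cdh19*, the gene poorest in G and C, had 0.73 there (adjusted p = 0.0526).

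**Figure D2:**
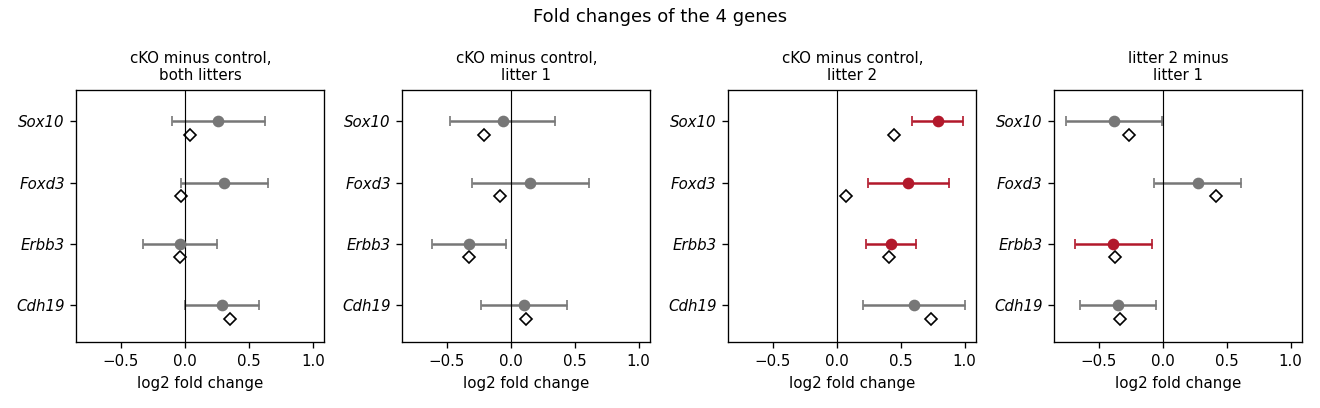
Log2 fold changes (x axis) of the 4 genes in 4 comparisons, with 95% intervals, red where edgeR's adjusted p was below 0.05 and grey otherwise. Open diamonds give the value after the correction for G and C content, which brought *Foxd3* in litter 2 from 0.56 to 0.07 and left *Erbb3* at 0.41.

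The second comparison set the litters against each other with the genotype in the model. *Erbb3* was the 1 member that passed, and it was lower in litter 2 (log2 fold change -0.39, standard error 0.14, adjusted p = 0.0463), where 17.8% of all tested genes were called lower and 16.9% higher. *Sox10* had a log2 fold change of -0.38 (adjusted p = 0.112), *Cdh19* of -0.35 (adjusted p = 0.0674) and *Foxd3* of 0.27 (adjusted p = 0.207). With DESeq2, which called 17.5% of its genes lower, *Cdh19* passed (-0.34, adjusted p = 0.0495). With the correction for G and C content, *Foxd3* passed as higher in litter 2 (0.42, adjusted p = 0.00337), beside 19.6% of the genes in that fit. The call for *Erbb3* was lost with DESeq2 (-0.38, adjusted p = 0.107) and in 7 of the 10 fits that left out 1 embryo (-0.50 to -0.26). Taken over control embryos alone, the litter difference was -0.82 for *Sox10* (adjusted p = 0.00115), -0.77 for *Erbb3* (adjusted p = 0.000606) and -0.61 for *Cdh19* (adjusted p = 0.0323), and *Foxd3* had 0.07 (adjusted p = 0.785). That fit called 12.9% of its genes lower. All values of *Sox10*, *Erbb3* and *Cdh19* in the litter 2 controls lay below those of the litter 1 controls, as in 26.4% of tested genes. Taken over *Dot1l*-cKO embryos alone, *Sox10* had 0.03 (adjusted p = 0.939), *Erbb3* -0.02 (adjusted p = 0.928), *Cdh19* -0.11 (adjusted p = 0.664) and *Foxd3* 0.47 (1.38-fold, adjusted p = 0.201). Among controls the litter and the number of floxed alleles cannot be told apart, and among *Dot1l*-cKO embryos the litter and sex, as read from *Xist* (-6.45, adjusted p = 1.1e-07), cannot.

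Other genes of the same cells were compared between litters, and they went both ways. Of 18 tested genes of Schwann cell precursors and satellite glia, 12 were called lower in litter 2 and 2 higher, beside 17.8% and 16.9% of all tested genes, and the median log2 fold change was -0.67, against -0.36 for the 4 genes and -0.02 over all genes. *Sostdc1*, a secreted inhibitor of BMP signalling, fell by 1.58, *Cmtm5* by 1.35 and *S100b*, a calcium-binding protein of glia, by 1.32 on the log2 scale. Of the 5 genes listed for boundary cap cells, which sit where the roots meet the cord, 2 were called lower, *Prss56* (-1.37) and *Hey2* (-0.95). In the comparison of genotypes over both litters, where 1.90% of all tested genes were called higher, 2 of the 18 passed as higher, among them *S100b* (0.92, adjusted p = 0.0467), and 0 passed as lower, with a median of 0.06. *Wif1*, a secreted WNT inhibitor, passed among the boundary cap genes (0.53, adjusted p = 0.0363), and *Prss56* had 0.74 (adjusted p = 0.0594). Leaving out 1 embryo ended the call in 8 of 10 fits for *S100b* and in 9 for *Wif1*.

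Genes that act around the 4 members were counted in the same way, beside the 17.8% of all tested genes called lower in litter 2 and the 16.9% called higher. Of 13 regulators and receptors of the neural crest, 6 were called higher in litter 2 and 1 lower. *Pax3* (0.87), *Sox9* (0.68) and *Twist1* (0.66), factors of early crest, dorsal neural tube or mesenchyme, rose, and *Sox8* (-0.47), a close relative of *Sox10*, fell. Of 17 genes of neuregulin and ERBB signalling, 5 were called lower in litter 2 and 1 higher. The ligand genes *Nrg3* (-0.61), *Nrg2* (-0.57) and *Nrg4* (-0.50) and the receptor gene *Erbb4* (-0.30) fell. The call was lost in 6 of 10 fits without 1 embryo for *Nrg4* (adjusted p up to 0.106) and in 2 for *Nrg2*. Between genotypes 0 of the 13 and 0 of the 17 passed edgeR's test, with medians of 0.00 and -0.03. At an unadjusted p under 0.05, which 21.7% of all tested genes passed, 1 of the 13 was higher and 2 were lower, and 0 of the 17 were higher and 2 lower. DESeq2, which called 8.98% of the genes it tested in either direction, called 1 gene lower in each of the lists and 0 higher.

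**Figure D3:**
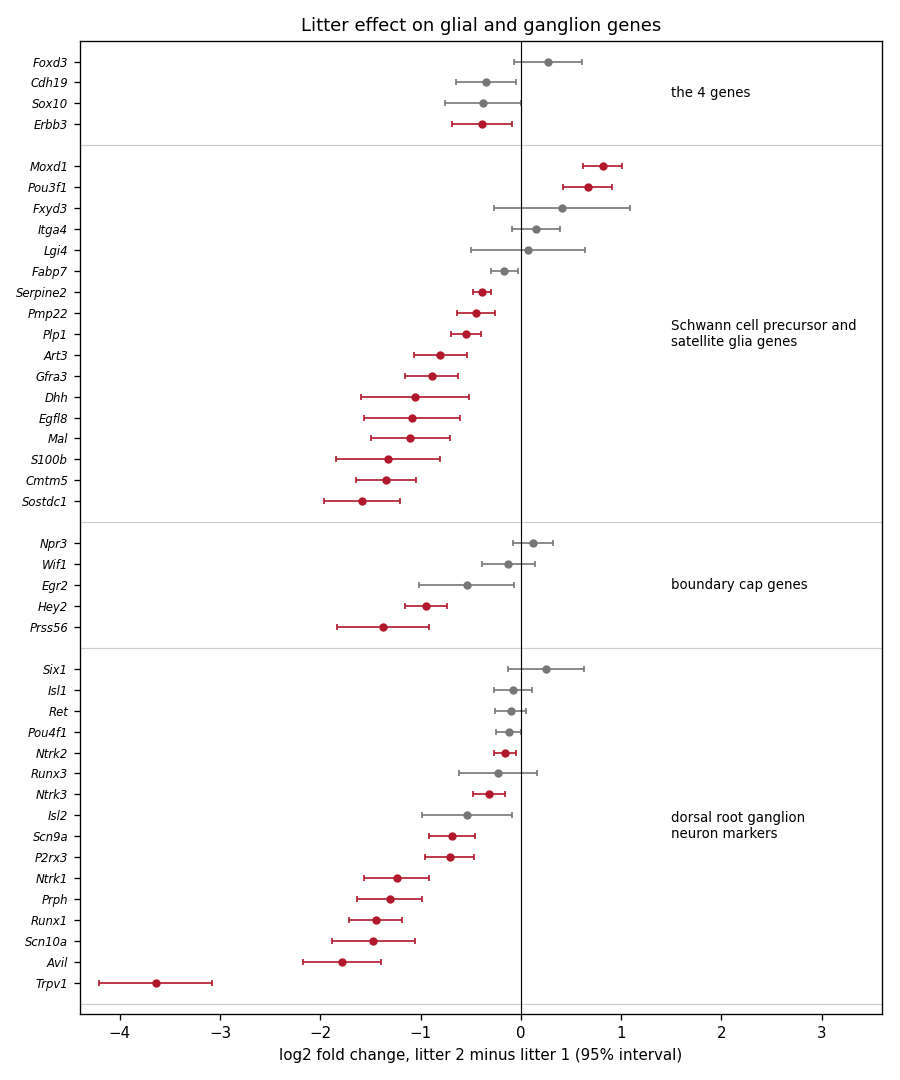
Log2 fold change of litter 2 minus litter 1 (x axis) with 95% intervals for the 4 genes and for the tested genes of the lists for Schwann cell precursors and satellite glia (all but 1, whether called or not), boundary cap cells and ganglion neurons, red where edgeR's adjusted p was below 0.05. Most genes of the Schwann cell precursor and satellite glia list lie further to the left than *Sox10*, *Erbb3* and *Cdh19*.

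Markers of other cell types were set beside these genes in the comparison of litters, where 17.8% of all tested genes were called lower in litter 2 and 16.9% higher. Of 16 tested markers of ganglion neurons, 10 were called lower in litter 2 and 0 higher, with a median of -0.61. They were led by *Trpv1*, the capsaicin receptor (-3.64), *Avil*, a gene of sensory neurons at large (-1.78), *Scn10a*, a sodium channel gene of nociceptors (-1.47), and *Runx1*, a factor of nociceptors (-1.45). The summed level of that list was 1582 to 1798 CPM in litter 1 controls and 1310 to 1578 CPM in litter 1 *Dot1l*-cKO embryos, and all 4 embryos of litter 2 lay below both ranges. *Runx3*, a factor of proprioceptive neurons, was the 1 ganglion marker that edgeR called between genotypes, lower in *Dot1l*-cKO embryos (-0.71, adjusted p = 0.0483 by edgeR, beside 2.99% of all genes called in that comparison). Its call was lost in 8 of 10 fits without 1 embryo. DESeq2 called 1 of the 16 higher and 2 lower between genotypes, beside 8.98% of the genes it tested. Of 6 genes listed for oligodendrocyte precursors, the other cells of the cord that use *Sox10*, 3 were called lower in litter 2 and 1 higher, led by *Olig1* (-2.32) and *Cspg4* (-0.60). Whether such cells were present at E12.5 was not tested. Of 6 genes listed for V1 and dI2 interneurons, which also make *Foxd3*, 4 were called higher in litter 2 and 0 lower, with *En1* at 0.91. The list is not particular to these cells, as the paper gives *Lhx5*, which is in it, to other interneuron classes too. Between genotypes edgeR called 0 of these 6 interneuron markers (1 higher and 1 lower at an unadjusted p under 0.05, beside 21.7% of all genes), and DESeq2 also called 0. Of the 6 genes listed for oligodendrocyte precursors edgeR called 0 between genotypes (2 higher and 0 lower at that threshold), and DESeq2 called 1 higher. The summed level of this interneuron list was 336 to 379 CPM in litter 1 controls, 370 to 438 CPM in litter 1 *Dot1l*-cKO embryos, 444 to 446 CPM in litter 2 controls and 448 to 512 CPM in litter 2 *Dot1l*-cKO embryos. Markers of mesenchyme and meninges were called lower for 2 of 11 and higher for 2, close to the shares over all genes, endothelial markers lower for 3 of 6, and erythroid markers higher for 4 of 8 and lower for 1. Melanoblast markers were called lower for 2 of 5 tested and higher for 2, sympathetic markers lower for 1 of 4 and higher for 2, and epithelial markers lower for 1 of 4 tested and higher for 3. The part of these cells in the values of the 4 genes was not tested.

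To compare the glial genes with each other inside an embryo, the counts of *Foxd3*, *Erbb3* and *Cdh19* were divided by that of *Sox10*. *Erbb3* had 148%, 124% and 131% of the *Sox10* count in control embryos 4, 5 and 9 of litter 1 and 140% and 137% in control embryos 5 and 7 of litter 2. In *Dot1l*-cKO embryos it had 105%, 103% and 133% in embryos 2, 3 and 7 of litter 1 and 107% and 108% in embryos 4 and 6 of litter 2. All *Dot1l*-cKO embryos but embryo 7 of litter 1 lay below all controls. The log2 ratio was lower by 0.29 in *Dot1l*-cKO embryos within litters (two-sided exact permutation of genotypes within litters, p = 0.05, adjusted p = 0.15 over 3 ratios). The smallest p this test allows is 0.0167. Taken litter by litter, the value stood at -0.25 within litter 1 and at -0.36 within litter 2. The correction for G and C content brought the fold changes of *Sox10* and *Erbb3* between genotypes to 0.04 and -0.04, a smaller distance than before it.

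*Foxd3* had between 14.8% and 22.2% of the *Sox10* count in the 6 embryos of litter 1 and between 23.9% and 39.8% in the 4 of litter 2. The litters did not overlap in this ratio, which was not tested. Between genotypes the log2 ratio differed by 0.02 (exact permutation p = 0.917, adjusted p = 0.917), an average of 0.19 in litter 1 and -0.23 in litter 2. *Cdh19* had between 9.12% and 16.2% of the *Sox10* count, with overlapping litters and genotypes (difference 0.04, exact permutation p = 0.817, adjusted p = 0.917), which averaged 0.21 within litter 1 and -0.20 within litter 2. For both ratios the sign thus differed between the litters, a contrast that was not tested.

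**Figure D4:**
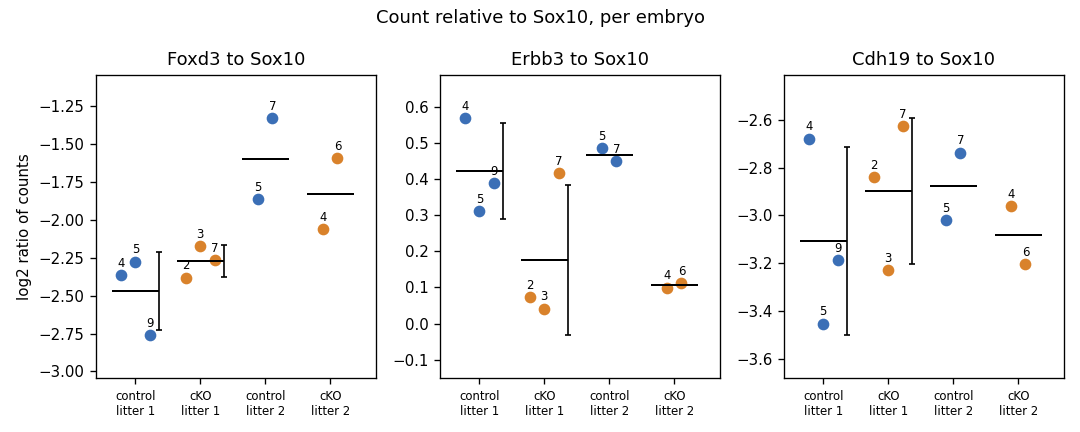
Log2 ratio of the count of *Foxd3*, *Erbb3* and *Cdh19* to that of *Sox10* (y axis, not from 0) in each embryo, by genotype (blue, control, and orange, *Dot1l*-cKO) and litter. Points carry the embryo number, lines are means and bars the SD of the groups of 3. The ratio of *Erbb3* lay between 0.04 and 0.11 in 4 of the 5 *Dot1l*-cKO embryos and at 0.42 in embryo 7 of litter 1.

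Across the 10 embryos, after the litter means were subtracted from log2 CPM, *Sox10* and *Erbb3* varied together (Pearson r = 0.84, exact permutation p = 0.00822, adjusted p = 0.0493 over 6 pairs; Spearman rho = 0.87, exact permutation p = 0.00700, adjusted p = 0.0420). Without the 2 embryos farthest from the median of *Sox10*, r was 0.76, and within the 6 embryos of litter 1 it was 0.75. *Sox10* and *Foxd3* had r = 0.75 (exact permutation p = 0.0253, adjusted p = 0.0760; rho = 0.78, p = 0.0208, adjusted p = 0.0598), 0.85 without the 2 farthest embryos. *Sox10* and *Cdh19* had r = 0.64 (exact permutation p = 0.107, adjusted p = 0.214; rho = 0.77, p = 0.0299, adjusted p = 0.0598), which dropped to 0.44 without the 2 farthest and was 0.21 within litter 1. The pairs without *Sox10* had r of 0.45 for *Foxd3* and *Erbb3*, 0.36 for *Foxd3* and *Cdh19* and 0.50 for *Erbb3* and *Cdh19* (exact permutation adjusted p from 0.255 to 0.374; rho 0.60, 0.48 and 0.67, adjusted p from 0.0993 to 0.203). *Sox10* and *Foxd3* share a high G and C content, and all pairs share libraries and genotypes, so these values describe joint variation over embryos of both genotypes.

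Among 14802 genes with a mean of at least 1 CPM, none of the 4 was among the 3 most like another in this pattern. The highest r with *Sox10* were those of *Tbx3* (0.98), *Tmem184b* (0.97) and *Tcirg1* (0.97), and with *Erbb3* those of *Ccn4* (0.97), *Otogl* (0.96) and *Tns2* (0.96). For *Foxd3* they were *1110065P20Rik* (0.98), *Ccdc61* (0.98) and *Cdkn1c* (0.98), and for *Cdh19* *Trim21* (0.95), *Casp9* (0.95) and *Cd33* (0.93). With 10 embryos and this many genes, high values of r arise in number, and they are given as a description.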

How the data were processed

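Lumbar RNA of 10 embryos was analysed from the raw counts per gene that the authors deposited. Per the methods of the study, reads were trimmed, aligned to mm10 with STAR and counted per gene with featureCounts in the default snakePipes workflow. The kit named does not mark strand, and whether the counting used strand is not given in the sources used here, so reads of overlapping genes cannot be told apart. The genes overlapping the 4 members had at most 24 counts. Names, lengths and G and C content came from GENCODE M21 on GRCm38, with 54079 of 54146 identifiers matched. From these counts, edgeR 4.0.16 in R 4.3.3 (quasi-likelihood test, TMM, default filter, Benjamini-Hochberg adjustment at 0.05) was fitted over all genes with genotype and litter, within each litter, and with their interaction. Standard errors are the log2 fold change divided by the square root of F. DESeq2 1.42.0, limma-voom 3.58.1, other filters and models, and each embryo left out were the alternatives. The G and C correction subtracted, per embryo, a lowess trend (span 0.3) of log2 CPM on content. It was planned for the genotype effect and added for the other comparisons after the data were seen. Ratios (pseudocount 0.5) and correlations were tested by exact permutation within litters, with 120 and 17280 arrangements.

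The members and gene lists were chosen with earlier results of these data known. From each list the text names up to 4 genes called in each fit and the 2 highest per kilobase, with some left out, and 1 listed gene, counted in its list, is not reported here. The text also gives for each member the 3 genes most like it. Same-group embryos (20 pairs) all differed beyond counting noise. The fit of genotype with litter was tried on simulated counts. That trial did not cover the fits within a litter, the interaction, the G and C correction or the permutation tests. The published single cell data that the study drew on and the study's comparison tables were not used here.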

Additional observations from a re-analysis of the deposited data

Results flagged for a closer look

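Of 14 groups of 5 embryos checked for an embryo apart (the level of each of the 4 genes and the 3 ratios to *Sox10*, in each genotype), 1 stood out, and chance flags about 1 group in 20. It was the log2 ratio of *Erbb3* to *Sox10* in *Dot1l*-cKO embryos, where the gap between embryo 7 of litter 1 (0.42) and the next embryo (0.11) made up 0.812 of the whole range. That embryo had the lowest *Sox10* level of the *Dot1l*-cKO embryos (35.7 CPM). At the G and C content of *Sox10*, its trend over all genes was -0.09, and it was 0.06 to 0.28 in the other 4 *Dot1l*-cKO embryos. The part of base composition in this ratio was not tested.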

How the results depend on the processing

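Genotype differences over both litters passed without the filter for *Sox10* (0.27) and *Foxd3* (0.32). They changed sign with *Xist* as a covariate for *Sox10* (-0.11) and with the G and C correction for *Foxd3* (-0.025). The fit with *Xist* is close to a repeat of the fit within litter 1, where *Sox10* had -0.06. In litter 1, *Erbb3* passed without the filter (-0.32) and *Foxd3* changed sign with the G and C correction (-0.083). In litter 2, calls were lost in the fit with 4 groups for *Sox10* (0.78), *Foxd3* (0.55) and *Erbb3* (0.42) and with the G and C correction for *Foxd3* (0.075), and *Cdh19* passed without the filter (0.63). The interaction passed for *Erbb3* with DESeq2 (0.75) and without the filter (0.75), and for *Sox10* without the filter (0.86). The litter difference of *Erbb3* lost its call with DESeq2 (-0.38) and in *Dot1l*-cKO embryos alone (-0.022), where *Sox10* changed sign (0.028). Litter calls appeared for *Cdh19* with DESeq2 (-0.34), without the filter (-0.36) and in controls alone (-0.61), for *Sox10* without the filter (-0.39) and in controls alone (-0.82), and for *Foxd3* without the filter (0.26) and with the G and C correction (0.42). The cause of these changes was not tested.

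When single embryos were left out, the genotype difference ranged from 0.16 to 0.40 for *Sox10*, 0.18 to 0.43 for *Foxd3*, -0.14 to 0.078 for *Erbb3* and 0.19 to 0.37 for *Cdh19*. The litter difference ranged from -0.51 to -0.25 for *Sox10*, 0.16 to 0.39 for *Foxd3*, -0.50 to -0.26 for *Erbb3* and -0.49 to -0.27 for *Cdh19*. Within litter 1 the ranges were -0.30 to 0.11 for *Sox10*, -0.15 to 0.33 for *Foxd3*, -0.48 to -0.19 for *Erbb3* and -0.048 to 0.20 for *Cdh19*. Within litter 2 they were 0.71 to 0.89 for *Sox10*, 0.39 to 0.76 for *Foxd3*, 0.34 to 0.54 for *Erbb3* and 0.39 to 0.80 for *Cdh19*. In litter 2 the call of *Foxd3* was lost without control embryo 5 or *Dot1l*-cKO embryo 6, and that of *Erbb3* without *Dot1l*-cKO embryo 4, in fits that left 1 embryo in a group and assumed that it varies like the other group's. The log2 ratios to *Sox10* ranged from -0.078 to 0.14 for *Foxd3*, -0.36 to -0.26 for *Erbb3* and -0.071 to 0.14 for *Cdh19*. No paired analysis was possible because the groups share no replicate numbers in the labels, and litters were used as a covariate instead.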
